A study of Mus musculus with 9 samples.

Results

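The mRNA levels of 10 genes that detect foreign or misplaced nucleic acid, or that pass the signal on, were compared between BCR/ABLp185+ cell lines lacking STAT5A or STAT5B and wild-type (wt) cells. The set was chosen by name from the known pathways, with earlier results of these data known, and holds 10 of the 50686 genes of the count tables. It comprised the cytosolic RNA helicases Ddx58, Ifih1 and Dhx58 with their mitochondrial adaptor Mavs, the DNA sensor Cgas with its adaptor Tmem173, the sensor Zbp1, and the endosomal receptors Tlr3, Tlr7 and Tlr9. All 10 passed the filter on low counts and were among the 13852 genes tested.

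RNA-seq was performed on mouse bone marrow cells made immortal with the BCR/ABLp185 oncogene, a constitutively active tyrosine kinase of human leukemia. The 3 groups were wt, Stat5a-/- and Stat5b-/-, and all of them carried BCR/ABLp185 and came from the C57BL/6N background strain. Each genotype was represented by 1 cell line, sequenced as 3 technical replicates, so that 9 libraries were analysed. All p-values therefore compare these 3 lines and measure the spread between technical replicates, and differences between genotypes cannot be told apart from differences between single lines.

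In the cytosol, RIG-I (encoded by Ddx58) and MDA5 (Ifih1) bind viral or unusual double-stranded RNA and signal through MAVS, while LGP2 (Dhx58) modulates both. cGAS (Cgas) binds double-stranded DNA and produces cyclic GMP-AMP, which activates STING (Tmem173), and ZBP1 (Zbp1) recognises left-handed Z-form nucleic acid and can trigger cell death. TLR3, TLR7 and TLR9 detect double-stranded RNA, single-stranded RNA and unmethylated CpG DNA inside endosomes, and many of these sensors are themselves induced by interferon, the cytokine that the pathways produce.

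The libraries held between 11948136 and 19016396 counted reads. Stat5a fell in Stat5a-/- (log2 fold change -1.80, SE 0.14, edgeR adjusted p = 4.69e-07) and Stat5b fell in Stat5b-/- (-0.73, SE 0.11, edgeR adjusted p = 0.000169), though reads of both genes remained in the lines meant to lack them. Against wt, Stat5a was higher in Stat5b-/- (0.96, SE 0.13, edgeR adjusted p = 5.95e-05) and Stat5b in Stat5a-/- (0.43, SE 0.11, edgeR adjusted p = 0.00942). Markers of the B lineage, the labelled origin being bone marrow only, were abundant in every library, and 8 genes summed to 4348 to 4578 normalized CPM in wt (CPM, counts scaled to a common library total after edgeR's TMM normalization), 5904 to 6464 in Stat5a-/- and 5248 to 5991 in Stat5b-/-. Both knockout lines lay above wt in this sum, with 5 of the 8 called higher and 1 lower in Stat5a-/- (19.8% and 16.3% of all genes) and 4 higher and 2 lower in Stat5b-/- (24.2% and 22.0% of all genes). The lower ones were Rag1 in both lines and Pax5 (log2 -0.39) in Stat5b-/-, and Ebf1 was not called in either. Genes of T cells were also present: 12 markers summed to 660 to 880 normalized CPM in wt, 1239 to 1415 in Stat5a-/- and 1476 to 2079 in Stat5b-/-, and all 12 were called higher in Stat5b-/- than in wt. Markers of macrophages and other myeloid cells (11 genes) summed to 13.9 to 22.6, of dendritic cells (8 genes) to 5.61 to 12.4 and of natural killer cells (6 genes) to 16.7 to 32.2 over all libraries. No marker of these lists was at 0 reads in all 9 libraries, but the myeloid genes Mpo and Cd14 had 0 reads in Stat5b-/-, S100a9 in Stat5a-/- and Elane in both.

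Per kilobase of exon (RPKM, computed from normalized CPM), the adaptors exceeded the sensors. Tmem173 was the highest member in every line, with means over 3 libraries of 57.5 RPKM (SD 4.50) for wt, 120.7 (SD 9.40) for Stat5a-/- and 75.6 (SD 3.03) for Stat5b-/-. Mavs came next in every line, at 23.8, 23.1 and 26.7 RPKM (SD 1.85, 2.71 and 3.12). Within each line neither adaptor overlapped with any sensor.

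In wt the order below them was Tlr9 (7.67 RPKM), Zbp1 (3.29), Ddx58 (2.74), Dhx58 (1.40), Ifih1 (0.887), Tlr7 (0.621), Cgas (0.289) and Tlr3 (0.170). Of these neighbours, Zbp1 with Ddx58 and Tlr7 with Cgas had overlapping ranges over the 3 libraries. In Stat5b-/- Zbp1 (14.4 RPKM) stood above Tlr9 (7.67), and Ddx58 (7.27) overlapped with Tlr9. In Stat5a-/- Cgas stood in the sixth place, not the ninth as in wt, at 2.18 RPKM, overlapping with Dhx58 (1.81), while Ifih1 (0.483) came ninth and overlapped with Tlr7 (0.857). Tlr3 was lowest in all 3 lines.

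RefSeq promoter windows (GRCm38.p6, 250 bases before to 50 after the annotated start) were found for 6 of the 10 members, namely Ddx58, Ifih1, Mavs, Cgas, Tlr3 and Tlr9. They were searched on both strands for the core of the interferon-stimulated response element (ISRE), GAAA and GAAA separated by any 2 bases, and for the GAS palindrome that STAT dimers bind, TTC and GAA separated by any 3 bases. Matches of the 2 motifs were counted independently of each other. The ISRE core occurred in 2 of the 6, Ddx58 and Ifih1, against 3.44% of 32851 promoters of the same length, and the GAS palindrome in 0 of the 6, against 8.30%. These matches describe letters only, and a missing match says only that the letters are not in the window. The stretches below, 5′ to 3′ on the gene's strand, are from promoters of 4 members that were called higher in Stat5b-/- than in wt, with the ISRE core in capitals. Ddx58 is shown from position -250 to 12 (chr4:40239814-40240075, minus strand), with its match starting at position 3 after the start as the reverse complement, and Ifih1 from position 21 to 50 (chr2:62646206-62646235, minus strand), with its match starting at position 33. Cgas (chr9:78443238-78443487, minus strand) and Tlr3 (chr8:45410381-45410630, minus strand) are shown from position -250 to -1 as members without a match.
Ddx58: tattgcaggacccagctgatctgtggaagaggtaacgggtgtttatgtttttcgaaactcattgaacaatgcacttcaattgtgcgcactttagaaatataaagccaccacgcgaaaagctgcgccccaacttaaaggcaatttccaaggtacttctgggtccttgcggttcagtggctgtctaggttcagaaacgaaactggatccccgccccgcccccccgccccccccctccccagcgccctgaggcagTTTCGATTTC
Ifih1: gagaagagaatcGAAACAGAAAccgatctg
Cgas: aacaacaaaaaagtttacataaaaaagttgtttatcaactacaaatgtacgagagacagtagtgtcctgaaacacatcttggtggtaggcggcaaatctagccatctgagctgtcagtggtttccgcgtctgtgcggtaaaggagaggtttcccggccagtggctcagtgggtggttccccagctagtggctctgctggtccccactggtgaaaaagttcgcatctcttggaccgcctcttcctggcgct
Tlr3: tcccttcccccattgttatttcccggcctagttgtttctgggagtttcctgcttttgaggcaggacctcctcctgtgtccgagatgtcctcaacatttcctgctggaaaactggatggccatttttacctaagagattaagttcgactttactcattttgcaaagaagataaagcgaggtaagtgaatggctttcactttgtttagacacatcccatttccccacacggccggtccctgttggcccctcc

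Compared with wt, 8 of the 10 members were called higher in Stat5b-/- at an adjusted p under 0.05, namely Ddx58, Ifih1, Dhx58, Cgas, Tmem173, Zbp1, Tlr3 and Tlr7. Over all genes tested 24.2% were called higher and 22.0% lower, and 0 members were called lower by edgeR, by DESeq2 or at an unadjusted p under 0.05. Mavs and Tlr9 were not called. Of the 8, 6 were above 2-fold, all but Ifih1 and Tmem173, against 10.6% of all genes. The median log2 fold change of the 10 members was 1.38, and that of all genes 0.02.

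In Stat5a-/- against wt, 4 members were called higher (Ddx58, Cgas, Tmem173 and Zbp1), where 19.8% of all genes were, and 1 lower (Ifih1), where 16.3% were. Cgas, Tmem173 and Zbp1 were above 2-fold, which held for 7.75% of all genes. The members' median log2 fold change was 0.41, against 0.01 over all genes. When the knockout lines were set against each other, 5 members were called higher in Stat5b-/- (Ddx58, Ifih1, Dhx58, Zbp1 and Tlr3; 16.4% of all genes) and 2 lower (Cgas and Tmem173; 17.5% of all genes). Above 2-fold were Ifih1, Dhx58 and Tlr3, against 4.81% of all genes. Mavs, Tlr7 and Tlr9 were not called there. Both comparisons against wt use the same wt libraries, so their values are not independent.

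**Figure D1:**
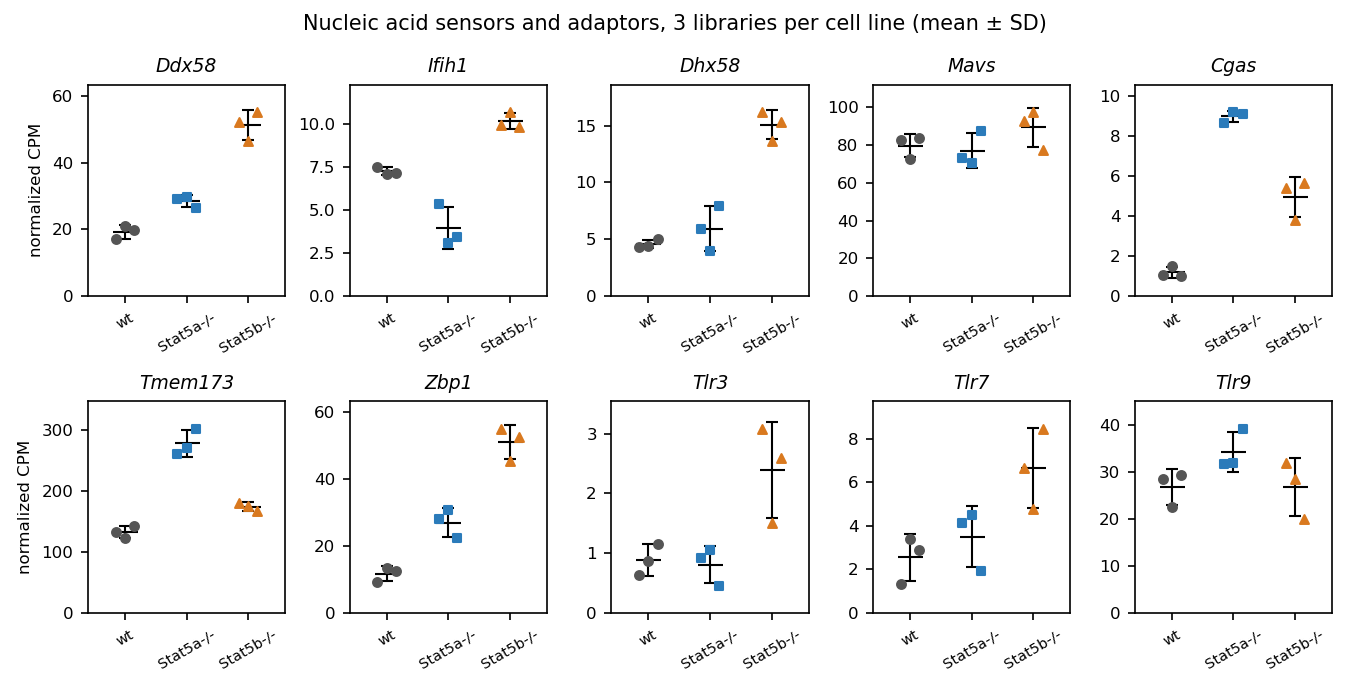
Normalized CPM (y axis, from 0) of the 10 members in each of the 3 libraries of wt, Stat5a-/- and Stat5b-/- (x axis), with bars for the mean ± SD. The Stat5b-/- libraries lie above the wt libraries for 8 members, whereas Cgas and Tmem173 are highest in Stat5a-/- and Mavs and Tlr9 overlap between Stat5b-/- and wt.

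**Figure D2:**
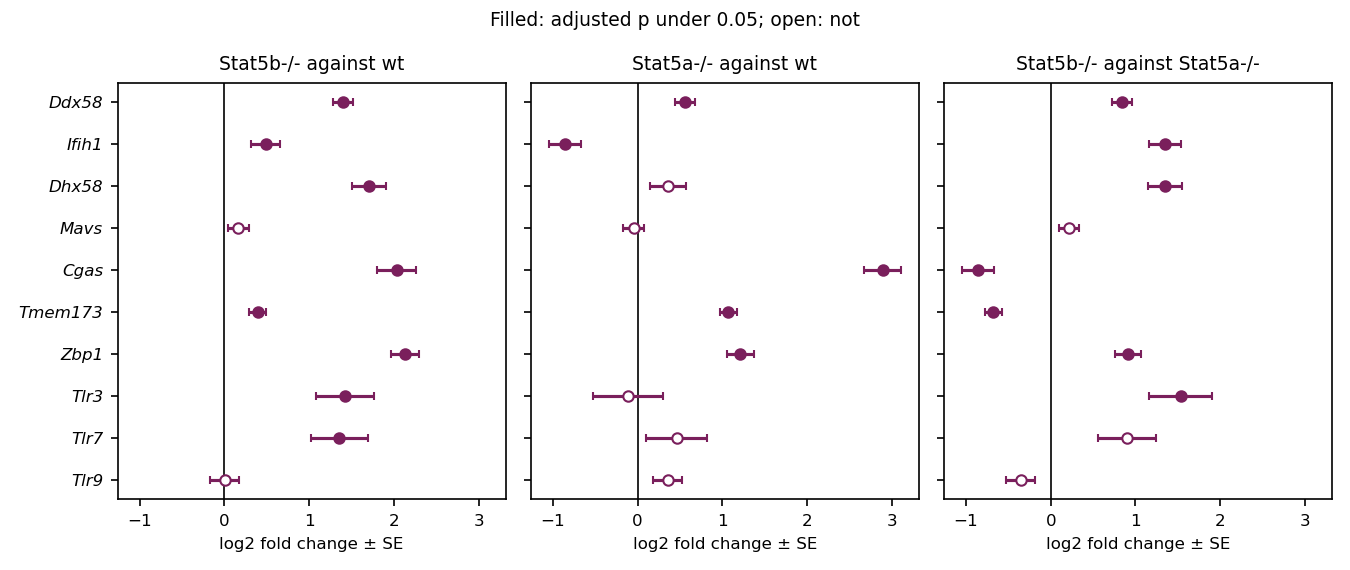
Log2 fold changes (x axis) of the members with standard errors (bars) in the 3 comparisons, filled where the edgeR adjusted p was under 0.05. In Stat5b-/- against wt 8 members are filled to the right of 0, in Stat5a-/- against wt 4 are filled to the right and Ifih1 to the left, and Cgas and Tmem173 are to the left in Stat5b-/- against Stat5a-/-.

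Among the cytosolic RNA sensors, Ddx58 (RIG-I; ENSMUSG00000040296.15, chr4:40203773-40239828) had 17.0, 21.1 and 19.9 normalized CPM in the wt libraries, 29.3, 29.8 and 26.4 in Stat5a-/-, and 52.2, 46.4 and 55.2 in Stat5b-/-. The 3 lines were separated, with wt lowest and Stat5b-/- highest. Relative to wt, Ddx58 rose by 1.40 on the log2 scale in Stat5b-/- (SE 0.12, edgeR adjusted p = 6.82e-07) and 0.56 in Stat5a-/- (SE 0.12, edgeR adjusted p = 0.00243). Stat5b-/- exceeded Stat5a-/- by 0.85 (SE 0.12, edgeR adjusted p = 0.000117).

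Ifih1, which encodes the long double-stranded RNA sensor MDA5 (ENSMUSG00000026896.14, chr2:62595798-62646255), went in opposite directions in the knockout lines. It had 7.49, 7.07 and 7.16 normalized CPM in wt, 5.31, 3.09 and 3.43 in Stat5a-/- and 9.94, 10.7 and 9.83 in Stat5b-/-, so that the ranges of the 3 lines did not overlap and Stat5a-/- was lowest. Relative to wt its log2 fold change amounted to -0.86 for Stat5a-/- (SE 0.19, edgeR adjusted p = 0.00324) and to 0.49 for Stat5b-/- (SE 0.17, edgeR adjusted p = 0.0349). The difference between the knockout lines was 1.35 (SE 0.19, edgeR adjusted p = 0.000136). The rise in Stat5b-/- was not called by DESeq2 (adjusted p = 0.0636), nor without any of 5 single libraries, each wt library and Stat5b-/- replicates 1 and 2, where edgeR adjusted p-values lay between 0.0587 and 0.0962.

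Dhx58, encoding the regulator LGP2 (ENSMUSG00000017830.15, chr11:100694884-100704271), had 4.31, 4.44 and 5.02 normalized CPM in wt and 16.2, 13.7 and 15.3 in Stat5b-/-. The 2 lines did not overlap, and the rise was 3.27-fold (log2 1.71, SE 0.20, edgeR adjusted p = 1.44e-05). In Stat5a-/- the libraries spread from 3.99 to 7.93 and overlapped with wt (0.36, SE 0.22, edgeR adjusted p = 0.219), and a call was made only when Stat5a-/- replicate 2, the lowest, was left out (0.56, edgeR adjusted p = 0.0450). Dhx58 was higher in Stat5b-/- than in Stat5a-/- by 1.35 (SE 0.20, edgeR adjusted p = 0.000211). Of its exon bases, 4.31% are shared with the antisense gene Dhx58os, and reads there could not be assigned to either gene.

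Mavs, the adaptor of RIG-I and MDA5 on mitochondria (ENSMUSG00000037523.13, chr2:131234063-131248025), was not called in any comparison. Its 9 libraries ranged from 70.8 to 97.5 normalized CPM, and the ranges of the 3 lines overlapped. Stat5b-/- differed from wt by 0.17 (SE 0.12) and Stat5a-/- by -0.05 (SE 0.12) on the log2 scale, with edgeR adjusted p-values of 0.277 and 0.795. Stat5b-/- differed from Stat5a-/- by 0.21 (SE 0.12, edgeR adjusted p = 0.190). With an offset for GC content, chosen after seeing the data, that difference was called (0.24, edgeR adjusted p = 0.0450).

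In the DNA-sensing arm, Cgas (ENSMUSG00000032344.17, chr9:78430526-78443237), the sensor itself, was higher in both knockout lines and highest in Stat5a-/-. The reads on it numbered 17, 30 and 17 in wt, 124, 113 and 101 in Stat5a-/- and 79, 56 and 74 in Stat5b-/-, equal to 0.982 to 1.52, 8.67 to 9.19 and 3.83 to 5.64 normalized CPM. The ranges of the lines did not overlap. Cgas rose 7.42-fold in Stat5a-/- (log2 2.89, SE 0.22, edgeR adjusted p = 2.87e-07) and 4.09-fold in Stat5b-/- (log2 2.03, SE 0.23, edgeR adjusted p = 1.02e-05), and Stat5b-/- stood below Stat5a-/- (-0.86, SE 0.19, edgeR adjusted p = 0.00361). Few reads support the wt level, and 4.87% of its exon bases are shared with the gene model Gm8093. Of the 35 other tested genes within 5 Mb, 1 had a log2 fold change at or above that of Cgas in Stat5a-/- and 1 in Stat5b-/-.

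Tmem173, encoding STING (ENSMUSG00000024349.9, chr18:35733678-35740554), had 132, 122 and 143 normalized CPM in wt, 261, 271 and 302 in Stat5a-/- and 180, 176 and 166 in Stat5b-/-. As for Cgas, Stat5a-/- was highest, wt lowest, and no ranges overlapped. Log2 fold changes were 1.07 for Stat5a-/- against wt (SE 0.10, edgeR adjusted p = 1.94e-06) and 0.39 for Stat5b-/- against wt (SE 0.10, edgeR adjusted p = 0.00534), and -0.68 for Stat5b-/- against Stat5a-/- (SE 0.10, edgeR adjusted p = 0.000176).

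The chromosome of Tmem173 moved with it. The median log2 fold change of 323 tested genes of chromosome 18 was 0.43 in Stat5a-/- against wt and -0.48 in Stat5b-/- against Stat5a-/-, but -0.04 in Stat5b-/- against wt. Relative to those medians, Tmem173 was at 0.64 in Stat5a-/-, at -0.20 between the knockout lines and at 0.44 in Stat5b-/-. Of the 94 other tested genes within 5 Mb, 9 had a log2 fold change at or above that of Tmem173 in Stat5a-/-. For the other 9 members the medians of their chromosomes lay between -0.06 and 0.09 in all 3 comparisons. The part of the chromosome shift in the Tmem173 values was not tested.

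**Figure D3:**
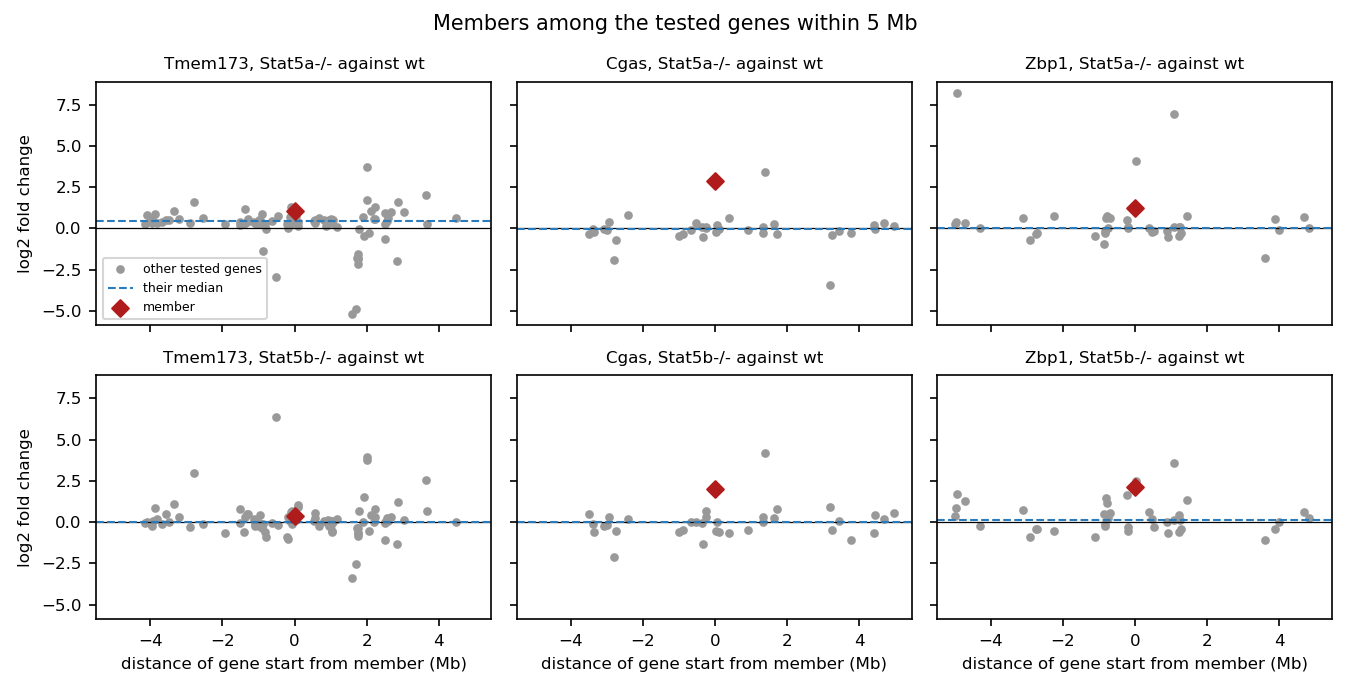
Log2 fold changes (y axis) of Tmem173, Cgas and Zbp1 (diamonds) and of the other tested genes (grey points) by distance in Mb of the gene starts (x axis), in Stat5a-/- against wt (top) and Stat5b-/- against wt (bottom). The dashed median of the neighbours is at 0.44 around Tmem173 in Stat5a-/- and at -0.05 and 0.05 around Cgas and Zbp1.

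Zbp1 (ENSMUSG00000027514.14, chr2:173206612-173218923) had the largest estimated fold change of the members in Stat5b-/-, within the standard errors of that of Cgas. It had 9.07, 13.4 and 12.4 normalized CPM in wt, 28.0, 30.6 and 22.3 in Stat5a-/- and 55.1, 45.3 and 52.5 in Stat5b-/-, with the lines separated in that order. Zbp1 rose 4.37-fold in Stat5b-/- (log2 2.13, SE 0.16, edgeR adjusted p = 2.59e-07) and 2.32-fold in Stat5a-/- (log2 1.21, SE 0.16, edgeR adjusted p = 5.88e-05). The knockout lines differed by 0.92 (SE 0.16, edgeR adjusted p = 0.000561).

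The endosomal receptors were expressed unevenly. Tlr3 (ENSMUSG00000031639.12, chr8:45395665-45411080), the double-stranded RNA receptor, had 10, 17 and 20 reads in wt, 13, 13 and 5 in Stat5a-/- and 45, 22 and 34 in Stat5b-/-. Every Stat5b-/- library exceeded every other library, while wt and Stat5a-/- overlapped. Log2 fold changes of Tlr3 were 1.42 for Stat5b-/- against wt (SE 0.34, edgeR adjusted p = 0.00434), -0.11 for Stat5a-/- against wt (SE 0.42, edgeR adjusted p = 0.860) and 1.53 between the knockout lines (SE 0.37, edgeR adjusted p = 0.00669). With so few reads these values are imprecise, and 7.32% of the exon bases of Tlr3 are shared with the gene model Gm45542.

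Tlr7 (ENSMUSG00000044583.13, chrX:167304929-167330558), the receptor for single-stranded RNA, had 21, 67 and 50 reads in wt, 59, 55 and 21 in Stat5a-/- and 97, 70 and 111 in Stat5b-/-. The wt and Stat5a-/- libraries overlapped and the Stat5b-/- libraries were higher. Tlr7 rose by 1.36 in Stat5b-/- against wt on the log2 scale (SE 0.34, edgeR adjusted p = 0.00519), with a value of 0.46 for Stat5a-/- against wt (SE 0.36, edgeR adjusted p = 0.357). Between the knockout lines it was 0.90 (SE 0.34, edgeR adjusted p = 0.0573), a difference that missed the threshold although the ranges did not overlap.

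Tlr9 (ENSMUSG00000045322.10, chr9:106222598-106226883), the receptor for CpG DNA, had 28.4, 22.4 and 29.3 normalized CPM in wt, 31.6, 31.7 and 39.1 in Stat5a-/- and 31.7, 28.4 and 19.9 in Stat5b-/-. Wt and Stat5b-/- overlapped almost wholly, at a log2 fold change of 0.0033 (SE 0.17, edgeR adjusted p = 0.990), while the Stat5a-/- libraries all lay above wt without a call (0.36, SE 0.17, edgeR adjusted p = 0.124). With an offset for the GC content of the genes, an alternative chosen after seeing the data, Tlr9 and Tlr7 were called higher in Stat5a-/- than in wt (0.31 and 0.74, edgeR adjusted p = 0.0489 and 0.0434).

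The levels of several members followed those of T-cell genes across libraries. Which cells of these lines carry the T-cell transcripts was not tested. The summed level of 5 T-cell genes (Cd3d, Cd3e, Cd3g, Cd8a and Cd8b1) was 377 to 534 normalized CPM in wt, 556 to 665 in Stat5a-/- and 776 to 1194 in Stat5b-/-, so that the 3 lines did not overlap. The library lowest for these 5 genes, replicate 1 in wt, 3 in Stat5a-/- and 2 in Stat5b-/-, was also the lowest of its line for Ddx58, Zbp1, Tlr3 and Tlr7. Dhx58 was lowest there in wt and Stat5b-/- but highest in Stat5a-/-, and Cgas was lowest there only in Stat5b-/-. Ifih1 and Mavs were highest in that Stat5b-/- library. Over the 9 libraries, which share these 3 lines, Pearson's r of the log2 CPM with the log2 share of the 5 genes was 0.95 for Ddx58, 0.93 for Tlr7, 0.92 for Tlr3, 0.91 for Zbp1 and 0.85 for Dhx58, against 0.49 for Ifih1, 0.47 for Cgas, 0.24 for Mavs, 0.07 for Tmem173 and -0.32 for Tlr9. In bulk RNA, more cells of a type and more RNA per cell cannot be told apart. Libraries of a line are technical replicates, so within a line differences in library preparation cannot be told apart from these either. Of 8 markers of dendritic cells, which are known to express Tlr3 or Tlr7, 5 were tested, and 4 were called higher in Stat5b-/- than in wt, among them Siglech (log2 1.07) and Clec9a (1.05), while Flt3 was lower (-0.73). Siglech and Clec9a rest on few reads. Siglech had 10 to 19 in wt and 14 to 36 in Stat5b-/-, with overlapping ranges, and Clec9a 4 to 11 and 9 to 16. Over all genes 24.2% were called higher and 22.0% lower in this comparison. Of 11 myeloid markers 4 were tested, with Csf1r (1.09) and Lyz2 (1.07) higher and Fcgr1 lower (-3.06). Of 6 markers of natural killer cells 4 were tested, and Gzmb (1.30), Eomes (1.10) and Prf1 (1.07) were higher in Stat5b-/- than in wt and Klrb1c lower (-2.65). Ncr1 and Klra8, with at most 5 and 7 reads in a library, were below the filter. The T-cell genes Cd3e (1.13) and Cd8a (1.16) rose by similar amounts, and which cells carry Gzmb, Eomes and Prf1 was not tested.

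Counted against the reads of those 5 genes, Tlr7 did not separate the lines, with 3.53 to 6.34 reads per 1000 in wt, 3.40 to 6.73 in Stat5a-/- and 5.57 to 7.53 in Stat5b-/-. Zbp1 had 24.1 to 25.6 per 1000 in wt, 40.0 to 46.0 in Stat5a-/- and 46.1 to 58.4 in Stat5b-/-, and Cgas 2.03 to 2.86, 13.4 to 16.4 and 4.54 to 5.02. Both stood above wt in both knockout lines on this scale too, and Dhx58 stood above wt in Stat5b-/- (13.6 to 17.6 against 8.32 to 11.4). In Ddx58 the Stat5b-/- and wt ranges overlapped, with a higher median in Stat5b-/- (43.7 to 59.8, median 49.2, against 39.4 to 45.1, median 41.2). The same held for Tlr3 (1.94 to 2.58, median 2.31, against 1.61 to 2.39, median 1.68). Ifih1 overlapped with a lower median in Stat5b-/- (8.33 to 13.7, median 8.75, against 13.2 to 19.8, median 14.8). Tmem173 lay below wt in Stat5b-/- (148 to 226 against 229 to 349) and above it in Stat5a-/- (402 to 543). Mavs and Tlr9, which were not called, also lay below wt in Stat5b-/-, at 69.1 to 125.7 against 136 to 220 and at 17.7 to 36.6 against 41.9 to 75.2.

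With the log2 share of the 12 T-cell markers as a covariate, 0 members were called in either direction between Stat5b-/- and wt by edgeR, and 4 were higher at an unadjusted p under 0.05, where 14.2% of all genes were. At an adjusted p under 0.05 this fit called 6.30% of all genes higher and 5.78% lower, against 24.2% and 22.0% without the covariate. The standard errors grew, and of the 8 members called without the covariate, Ifih1 (0.70, SE 0.50) and Tmem173 (0.56, SE 0.28) had larger log2 fold changes than before. Dhx58 was little moved (1.63, SE 0.58), Zbp1 (1.06, SE 0.32), Cgas (0.92, SE 0.55) and Ddx58 (0.72, SE 0.26) were smaller, and Tlr3 (-0.90, SE 0.83) and Tlr7 (-1.20, SE 0.69) were negative. With the share of the 5 CD3 and CD8 genes instead, chosen after seeing the data, Ddx58 (0.90, SE 0.20), Dhx58 (1.67, SE 0.45) and Zbp1 (1.34, SE 0.24) were called higher, against 10.2% of all genes, and 0 members lower, against 9.28% (edgeR, 0 also at an unadjusted p under 0.05), while Tlr3 and Tlr7 were at -0.33 (SE 0.64) and -0.55 (SE 0.52). In Stat5a-/- against wt, Cgas, Tmem173 and Zbp1 were called higher under either covariate, where 14.0% of all genes were with the 12 markers and 20.6% with the 5 genes. Ddx58 was called higher (0.43, SE 0.10) and Ifih1 lower (-0.83, SE 0.21) only with the 5 genes, with values of 0.21 (SE 0.16) and -0.74 (SE 0.31) for the 12 markers, and the shares of all genes called lower were 12.3% and 17.7%. Between the knockout lines, Ifih1 and Dhx58 were called higher in Stat5b-/- and Cgas lower under both, and Ddx58 higher and Tmem173 lower only with the 12 markers. The fits called 6.56% and 5.78% of all genes higher there, and 8.47% and 7.62% lower. Tlr3 and Zbp1 lost that call, at 0.39 and 0.40 with the 12 markers and at 0.22 and 0.33 with the 5 genes. Neither share overlapped between the 3 lines. The 12 markers did not move alike: in Stat5a-/- against wt 7 were called higher and 5 not called, Cd3d, Cd3g and Cd8a among these. Cd2, which is not one of the 5 genes, averaged 55.1 normalized CPM in wt, 276 in Stat5a-/- and 96.3 in Stat5b-/-. Its log2 fold change was 2.33 in Stat5a-/- against wt and -1.52 in Stat5b-/- against Stat5a-/-, where 10 markers were called higher. The part of Cd2 in the differences between the 2 covariates was not tested. With genotype in the fit, the slope on a share comes from differences between technical replicates of the same line. It was carried across lines of unlike shares, and the part of the T-cell transcripts in the members' differences was not tested.

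**Figure D4:**
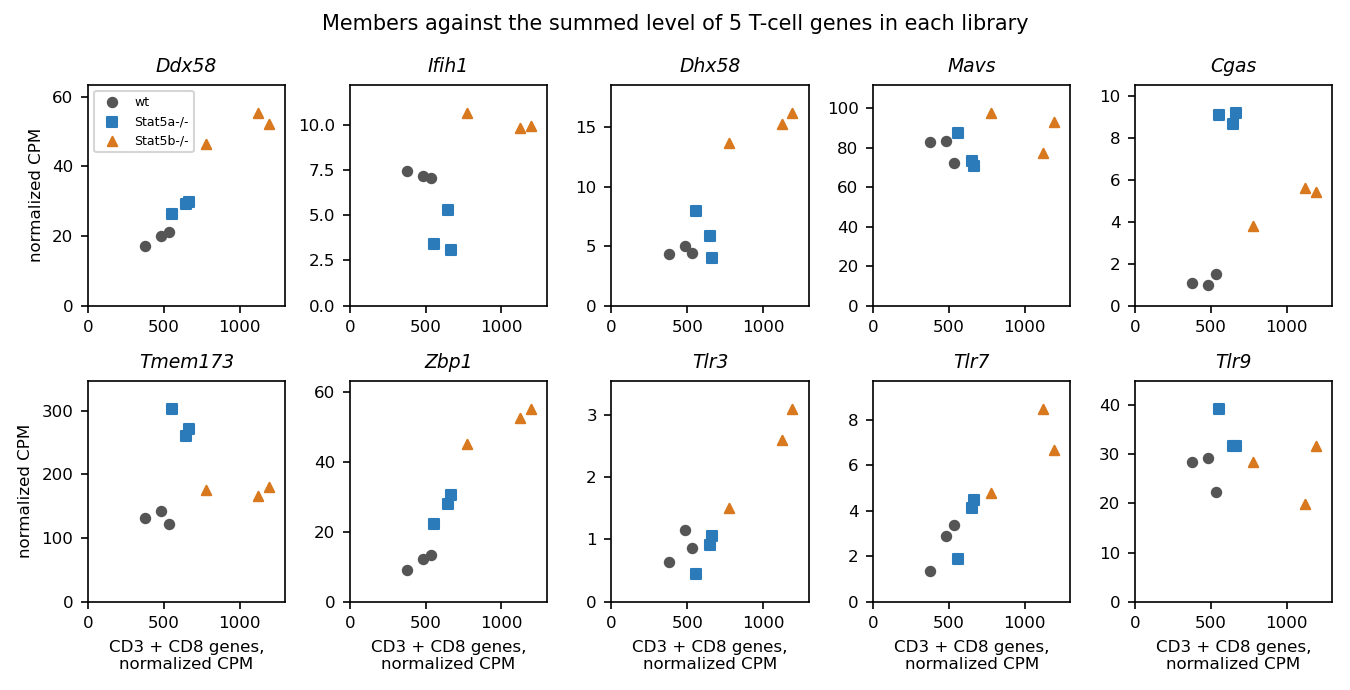
Normalized CPM of each member (y axis) against the summed normalized CPM of the 5 CD3 and CD8 genes (x axis), 1 point per library, for wt (circles), Stat5a-/- (squares) and Stat5b-/- (triangles). Ddx58, Zbp1, Tlr3 and Tlr7 follow these 5 genes across the 9 libraries, with r of 0.91 to 0.95, whereas Cgas and Tmem173 are highest in Stat5a-/- at intermediate levels of the 5 genes.

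The gene whose pattern over the 9 libraries was most like each member's, by Pearson's r of log2 CPM, was Oasl2 for Ddx58 (r = 0.999), Aipl1 for Ifih1 (0.991), Pou6f1 for Dhx58 (0.987), Runx2 for Cgas (0.992), Hivep3 for Tmem173 (0.995) and Kifap3 for Zbp1 (0.995). For Mavs it was Mau2 (0.978), for Tlr3 Cracr2a (0.978), for Tlr7 Msl2 (0.983) and for Tlr9 Rplp2 (0.977). These are the best of all tested genes over 9 libraries from 3 lines, and 286 genes reached r of at least 0.95 with Ddx58 and 273 with Zbp1, against 8 with Mavs and 8 with Tlr9. Ddx58 and Zbp1 correlated with each other at 0.979.

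Of 79 other genes of the pathways, 56 were tested. In Stat5b-/- against wt 22 of them were called higher and 8 lower, in Stat5a-/- against wt 14 and 11, and in Stat5b-/- against Stat5a-/- 17 and 11. As shares of the 56 these were 39.3% and 14.3%, 25% and 19.6%, and 30.4% and 19.6%, beside 24.2% and 22.0%, 19.8% and 16.3%, and 16.4% and 17.5% of all genes. In Stat5b-/- against wt, 6 were called higher and 3 lower with the share of the 12 T-cell markers as a covariate, and 8 and 5 with that of the 5 CD3 and CD8 genes. Over all genes these fits called 6.30% higher and 5.78% lower, and 10.2% and 9.28%. Between the knockout lines fewer were called in both directions under either covariate, as given further below. The 11 lower there were 6 to 11 with each library left out. Without a covariate, the median log2 fold changes of the 56 genes in the 3 comparisons were 0.25, -0.03 and 0.10. All 20 interferon genes and Tlr8, Tlr13 and Trex1 were below the filter on low counts.

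Of 12 partners and regulators of the RNA helicases, Stat5b-/- had 5 called higher and 3 called lower than wt, and Stat5a-/- 1 and 3. Nlrx1, a mitochondrial protein reported to restrain MAVS, had 3, 3 and 2 reads in wt, 4, 3 and 2 in Stat5a-/- and 75, 50 and 48 in Stat5b-/-. Pooled over libraries, Stat5b-/- had 27.0 times the wt level (exact 95% interval of the counts 13.4 to 63.5, counting error only), with edgeR adjusted p = 1.61e-07. Ddx60, an antiviral helicase, rose in Stat5b-/- (1.41, SE 0.26, edgeR adjusted p = 0.000612), as did the deubiquitinase Cyld (0.72). Neither was called with a T-cell covariate, at -0.68 and -0.06 with the 12 markers and at -0.18 and 0.13 with the 5 genes. Trim25, the ubiquitin ligase of RIG-I, rose in both lines, by 0.54 in Stat5b-/- and 0.67 in Stat5a-/-. The ligases Rnf125 and Rnf135 fell in both, Rnf125 by 0.89 in Stat5b-/- and 1.05 in Stat5a-/- on the log2 scale.

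Of 12 TRAF adaptors, kinases and interferon regulatory factors downstream of MAVS and STING, Stat5b-/- had 4 called higher and 2 called lower than wt, and Stat5a-/- 3 and 2 (1 lower without wt replicate 2 or 3, Stat5a-/- replicate 2 or 3, or Stat5b-/- replicate 2). Irf7, the master factor of type I interferon induction, had 5.08, 6.77 and 6.24 normalized CPM in wt, 13.6, 11.8 and 11.5 in Stat5a-/- and 34.2, 29.5 and 28.3 in Stat5b-/-. Irf7 rose by 2.34 in Stat5b-/- (log2, SE 0.15, edgeR adjusted p = 3.61e-08), 1.02 in Stat5a-/- (SE 0.15, edgeR adjusted p = 0.000128) and 1.32 between them (SE 0.14, edgeR adjusted p = 1.09e-05). It was still called in Stat5b-/- with the share of the 12 T-cell markers as a covariate, at 1.85 (SE 0.36), and with that of the 5 CD3 and CD8 genes, at 1.95 (SE 0.27). Tbkbp1, a scaffold of the kinase TBK1, fell in both lines, from 26.7, 13.8 and 20.4 normalized CPM in wt to 1.71 to 4.42 in Stat5a-/- and 1.52 to 2.81 in Stat5b-/-. Its log2 fold change was -2.88 in Stat5a-/- and -3.20 in Stat5b-/- (edgeR adjusted p = 1.07e-05 and 3.97e-06). With the T-cell covariates the fall of Tbkbp1 in Stat5b-/- was not called (-1.35 with the 12 markers and -1.77 with the 5 genes).

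Of 11 tested genes that limit the ligands of cGAS, MDA5 and STING or regulate these proteins, Stat5b-/- had 5 called higher and 1 called lower than wt, and Stat5a-/- 5 and 2. As shares, Stat5b-/- had 45.5% and 9.09%, beside 24.2% and 22.0% of all genes, and Stat5a-/- 45.5% and 18.2%, beside 19.8% and 16.3%. The counts moved with single libraries: in Stat5b-/- they were 2 to 5 higher and 0 to 1 lower with each library left out (3 higher without any 1 wt library, 2 without Stat5b-/- replicate 1, 0 lower without wt replicate 3 or Stat5b-/- replicate 2), and 3 higher with DESeq2, and in Stat5a-/- 1 was lower without wt replicate 2 or 3. Not all of them act on nucleic acid: Enpp1, which cleaves cyclic GMP-AMP, and the ubiquitin ligase Trim56 were among the 5 higher in Stat5b-/- (0.79 and 0.43), and in Stat5a-/- the ubiquitin ligase Rnf5 was higher (0.78) and Trim56 lower (-0.35). Adar, the enzyme that edits double-stranded RNA, rose by 1.08 in Stat5b-/- (SE 0.10, edgeR adjusted p = 2.51e-06) and by 0.49 in Stat5a-/- (SE 0.10), and stayed called in Stat5b-/- with both T-cell covariates (1.43 and 1.35). Skiv2l, an exosome helicase, was higher than in wt in Stat5a-/- (1.01, SE 0.18) and in Stat5b-/- (0.57, SE 0.18), and Rnaseh2a, a subunit of ribonuclease H2, fell slightly in both. Trex1, the cytosolic DNA exonuclease, had 0 reads in all 9 libraries. Its 1147 exon bases are all shared with another gene model, so that reads on it could not be assigned.

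Of 15 tested partners of the endosomal receptors, Stat5b-/- had 5 called higher and 2 called lower than wt, and Stat5a-/- 4 and 4. In Stat5b-/- these were 33.3% and 13.3%, beside 24.2% and 22.0% of all genes. In Stat5a-/- they were 26.7% and 26.7%, beside 19.8% and 16.3%. With each library left out the counts for Stat5b-/- were 2 to 7 higher and 2 to 4 lower, with 2 higher without wt replicate 2 or 3, 3 without Stat5a-/- replicate 1 or 2 or Stat5b-/- replicate 1 or 2, and 4 lower without Stat5b-/- replicate 3. DESeq2 and RLE normalization each called 3 higher. Slc15a3, a lysosomal transporter of peptides, separated the knockout lines most, with 51.7, 38.1 and 44.5 normalized CPM in wt, 14.6, 16.3 and 18.1 in Stat5a-/- and 69.7, 76.1 and 61.4 in Stat5b-/-. The difference between knockout lines was 2.08 (SE 0.14, edgeR adjusted p = 1.60e-07). Lgmn, a protease that cleaves TLR9, fell by 1.59 in Stat5b-/- and 1.28 in Stat5a-/- (edgeR adjusted p = 3.05e-08 and 2.59e-07), and the nuclease Pld4 fell by 1.07 in Stat5b-/- and 0.46 in Stat5a-/- on the log2 scale. Unc93b1, which carries the receptors to endosomes, rose by 0.58 in Stat5b-/- and 0.99 in Stat5a-/-.

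Of 6 genes of the death arm reached through ZBP1, Stat5b-/- had 3 called higher and 0 called lower than wt by edgeR (0 lower at an unadjusted p under 0.05 or by DESeq2 as well), and Stat5a-/- had 1 called higher. The higher ones were 50.0% in Stat5b-/- and 16.7% in Stat5a-/-, beside 24.2% and 19.8% of all genes. Over all genes 22.0% were called lower in Stat5b-/-. Mlkl, the executioner of necroptosis, had 2.73, 3.43 and 3.29 normalized CPM in wt, 14.8, 16.8 and 15.2 in Stat5a-/- and 15.3, 18.7 and 21.1 in Stat5b-/-. Its rise, 2.53 in Stat5b-/- and 2.30 in Stat5a-/- (edgeR adjusted p = 5.49e-08 and 1.76e-07), remained called with the 12 T-cell markers as a covariate, at 2.32 and 2.19, and with the CD3 and CD8 share, at 2.41 and 2.27. Cflar, an inhibitor of caspase-8, rose in Stat5b-/- (1.05, SE 0.14) but was not called with the T-cell covariates (0.20 with the 12 markers and 0.39 with the 5 genes), and Ripk3, the kinase that binds ZBP1, was lower in Stat5b-/- than in Stat5a-/- (-0.37, SE 0.11).

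Few reads were counted on the interferons that these pathways produce. Of 20 interferon genes, 17 had 0 reads in all 9 libraries and 9 reads in all fell on Ifnab (1), Ifnk (3) and Ifng (5). A count of 0 allows up to 3 reads in a library, equal to 0.158 CPM in the deepest and 0.251 CPM in the shallowest library. This bound covers only reads that were assigned to a single gene. No option to count multi-mapped reads was set, and the Ifna genes are close copies, so reads that fit several of them would be missing from these counts.

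**Figure D5:**
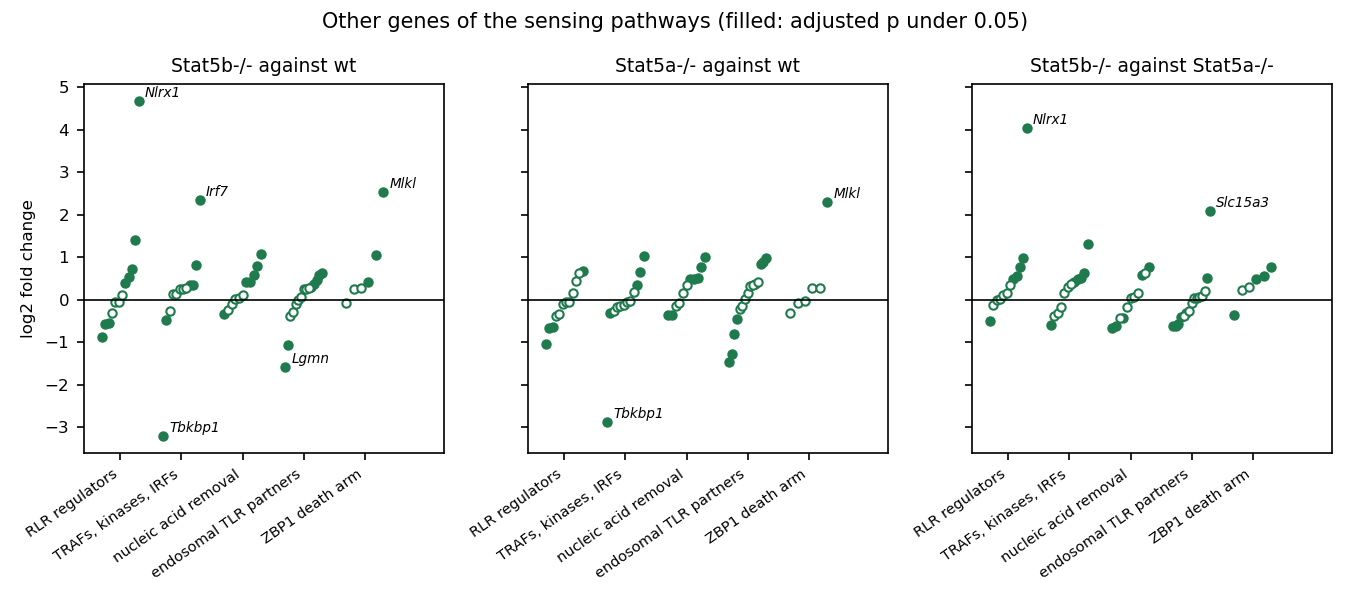
Log2 fold changes (y axis) of the 56 tested pathway genes in 5 lists (x axis) for the 3 comparisons, filled where the edgeR adjusted p was under 0.05 and named beyond 1.5 in either direction. Nlrx1, Irf7 and Mlkl lie highest and Tbkbp1 lowest in Stat5b-/- against wt, and Nlrx1 and Slc15a3 separate the knockout lines.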

How the data were processed

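RNA was measured in 9 polyA RNA-seq libraries. The authors trimmed 50-base single-end reads with Trimmomatic, mapped them with STAR to the mouse genome GRCm38 with GENCODE M13 annotation, and deposited raw counts of reads per gene for 50686 genes, made with featureCounts 1.5.1 on exons and not normalized. By the header, no option for strand or multi-mapped reads was set, so reads on overlapping gene models, antisense ones included, were left out as ambiguous.

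Samples were grouped by title and genotype label. The free-text description of both knockouts names wild-type lines and conflicts with these labels. Symbols for 50376 of 50686 genes came from GENCODE M21. Counts were tested with edgeR 4.0.16 in R 4.3.3 (TMM, filterByExpr, glmQLFit and glmQLFTest on all 9 libraries, Benjamini-Hochberg adjustment over 13852 genes). A gene was called at an adjusted p under 0.05, with calls above 2-fold counted beside, and standard errors are the size of the log2 fold change divided by the root of the F statistic. Each member was compared with the other tested genes of its chromosome and with those within 5 Mb. A marker gene of the lists is not reported here. Reads carry no molecular identifiers, so counting intervals cover counting error only. Replicate libraries of a line differed beyond sampling noise (chi-square per degree of freedom at least 4.81).

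The members and lists were chosen with earlier results of these data known. Named were the 10 members, Stat5a and Stat5b, up to 3 called genes per pathway list, comparison and direction with the largest change, genes needed to describe a member, markers of cell types (Siglech, Clec9a, Csf1r, Lyz2, Flt3, Fcgr1, Mpo, Cd14, S100a9, Elane, Rag1, Pax5, Ebf1, Cd2, Ncr1 and Klra8 among them chosen after their values were seen), and for each member the 1 most correlated gene. Alternatives were DESeq2 1.42.0, RLE normalization, other count filters, only the 2 genotypes compared, each library left out, the replicate block, T-cell covariates, a minimum log2 fold change of 1 as the null of the test, chromosome medians and, chosen after seeing the data, a GC offset (loess, span 0.5), that offset with the block, and the CD3 and CD8 share. The steps were tested on simulated counts.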

Additional observations from a re-analysis of the deposited data

Results flagged for a closer look

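The 2 knockout lines, 1 per genotype, were compared by the direct test of Stat5b-/- against Stat5a-/-, which passed an adjusted p of 0.05 (edgeR) for 7 of the 10 members, 5 higher and 2 lower, where 16.4% of all genes were called higher and 17.5% lower. Ifih1 stood out because it went in opposite directions against wt, and the direct log2 difference was 1.35. Its rise in Stat5b-/- against wt (0.49, edgeR adjusted p = 0.0349) was not called with DESeq2 (adjusted p = 0.0636), with the replicate block (edgeR adjusted p = 0.0569), without any 1 of 5 libraries or with either T-cell covariate, where its log2 fold change was larger (0.70 and 0.58) and so was its standard error (0.50 and 0.38, against 0.17). Higher in Stat5b-/- were also Tlr3 (1.53), Dhx58 (1.35), Zbp1 (0.92) and Ddx58 (0.85). With the T-cell covariates Tlr3 (0.39 and 0.22) and Zbp1 (0.40 and 0.33) were not called, nor was Ddx58 with the CD3 and CD8 share (0.47). Lower in Stat5b-/- were Cgas (-0.86) and Tmem173 (-0.68), the latter not called with the CD3 and CD8 share (-0.57). The part of the T-cell transcripts in these differences was not tested, and for Tmem173 the median of its chromosome was -0.48 in the same comparison.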

How the results depend on the processing

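Calls and directions of the members held under RLE normalization, other count filters, DESeq2 and only the 2 genotypes compared, apart from Ifih1 (Stat5b-/- against wt, DESeq2), Tlr7 between the knockout lines (called without a filter and with only the 2 lines) and the sign of Tlr9, which lay near 0. In Stat5b-/- against wt Tlr9 was at -0.0312 with DESeq2, -0.0205 with RLE, -0.0157 with no filter and -0.0199 with only the 2 genotypes, and at -0.17 to 0.18 with each library left out. Tlr3 in Stat5a-/- against wt was at -0.35 to 0.11 with each library left out (above 0 without wt replicate 3 or Stat5a-/- replicate 3), at 0.16 with the GC offset and at 0.13 with the offset and the block. The 11 pathway genes lower in Stat5b-/- than in Stat5a-/- were 6 to 11 with each library left out, 6 without Stat5a-/- replicate 3. Tlr7 between the knockout lines was also called without wt replicate 1, without Stat5b-/- replicate 2 and with the GC offset, and Mavs with that offset.

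Replicate numbers did not pair the samples: the deviations of libraries with the same number correlated at -0.079 on average over 9 pairs, against 0.040 over 18 other pairs. With the replicate number as a block, 7 members were called higher in Stat5b-/- than in wt, without Ifih1 (edgeR adjusted p = 0.0569), where 21.8% of all genes were, and no other member's call changed.

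With the share of the 12 T-cell markers as a covariate, Stat5b-/- against wt had 0 members higher, and 6 pathway genes higher and 3 lower, with Tlr3 at -0.90 and Tlr7 at -1.20. Stat5a-/- against wt had 0 members lower (edgeR, 2 at an unadjusted p under 0.05), with Mavs at 0.25 and Tlr7 at -0.84. Stat5b-/- against Stat5a-/- had 3 members higher, and 8 pathway genes higher and 1 lower, with Tlr7 at -0.36.

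With the CD3 and CD8 share, chosen after seeing the data, the numbers were 3 members higher, and 8 pathway genes higher and 5 lower, in Stat5b-/- against wt, with Tlr3 at -0.33 and Tlr7 at -0.55. Mavs was at 0.065 and Tlr7 at -0.013 in Stat5a-/- against wt. Between the knockout lines 2 members were higher and 1 lower, and 7 pathway genes higher and 1 lower, with Tlr7 at -0.53.

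Tested against a log2 fold change of 1, 4 members and 3 pathway genes were higher and 2 pathway genes lower in Stat5b-/- than in wt, 1 member and 1 pathway gene higher and 0 members and 3 pathway genes lower in Stat5a-/- than in wt, and 0 members either way, 2 pathway genes higher and 0 lower between the knockout lines. Of all genes this test called 4.58% higher and 5.25% lower in Stat5b-/-, 4.59% and 4.19% in Stat5a-/-, and 1.88% and 3.62% between the knockout lines. The cause of these changes was not tested beyond the higher limit itself. Tlr3, Tlr7 and wt Cgas rest on few reads, and 1 line per genotype limits all comparisons.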

Other observations

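Rag1, the recombinase gene of developing lymphocytes, had 1002 to 1328 reads in the wt libraries, 1 to 3 in Stat5a-/- and 7 to 11 in Stat5b-/-. It was called lower than wt in both knockout lines (edgeR adjusted p = 2.13e-11 in Stat5a-/- and 3.67e-11 in Stat5b-/-) and higher in Stat5b-/- than in Stat5a-/- (edgeR adjusted p = 0.00320). The 3 lines differed in this gene of early lymphoid stages besides the sensors.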
